A study of Drosophila melanogaster with 3 samples.

Results

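The odorant (Or), gustatory (Gr) and ionotropic (Ir) receptor genes of Drosophila melanogaster were examined for peaks of abd-A tagged with GFP. Members were the protein-coding genes whose symbol is Or, Gr or Ir followed by a number, 179 of the 13945 protein-coding genes on the 6 main chromosome arms, with 59 Or, 60 Gr and 60 Ir genes. The 7 receptor pseudogenes with such symbols were not members, and neither was Orco, whose symbol carries no number. All libraries came from 1 group: whole embryos of both sexes, 4 to 24 hours old, of a transgenic line that stably expresses abd-A fused at its C-terminus to GFP, with 3 biological replicates and no second genotype, age or treatment. Chromatin was precipitated with an antibody to GFP, so a peak can come from any cell of the embryo. What drives the transgene is not given in the sources used here. There were 30000 peaks in the list of every replicate and in the list from pooled reads. A subset of 8143 pooled peaks had been kept by the irreproducible discovery rate (IDR), a measure of agreement between replicates. A member was counted as having a peak where the summit, the peak's highest point, lay in the gene or within 2000 bp of either end. The lists hold peak positions and no expression, the read depth behind them was unknown, and no control embryos were analysed here.

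Chemoreceptor genes encode the proteins with which an insect smells and tastes. Odorant receptors form ion channels with the common co-receptor Orco, gustatory receptors are related channels that detect sugars, bitter compounds, carbon dioxide and pheromones, and ionotropic receptors derive from glutamate receptors and detect acids, amines, humidity and temperature. Each sensory neuron expresses few of these genes, many of them only in the larva or the adult, and the larval nose and taste organs lie mostly in the head. abd-A is a Hox gene expressed in the abdomen, and Hox proteins bind DNA through a homeodomain, often beside the partner Exd.

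Sequences of 101 bases around 5 summits are shown to let the sites be compared, on the plus strand of dm6 as read from the RefSeq copy of that assembly. First come the strongest peak near any member (Or88a) and the only IDR summit in a receptor intron (Ir92a). Next is the site upstream of the pheromone receptor gene Or67d, where none of the words searched was found. The last are the site of Gr22e, with the composite word, and the site of Or85f, with TAATTA. Capitals mark any of TAATTA and TTTATT, which are AT-rich words of the kind homeodomains bind, TGATNNAT, a form of the composite Exd-Hox site, GAGAG and CACACA, simple repeats often seen at open chromatin, and the further word TAGTTG, on either strand.

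Or88a, chr3R:14108494-14108594: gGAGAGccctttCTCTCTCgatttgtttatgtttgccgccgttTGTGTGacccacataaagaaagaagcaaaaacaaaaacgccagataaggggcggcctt

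Ir92a, chr3R:20340979-20341079: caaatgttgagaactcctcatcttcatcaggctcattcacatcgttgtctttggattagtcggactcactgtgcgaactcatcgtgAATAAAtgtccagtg

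Or67d, chr3L:10271940-10272040: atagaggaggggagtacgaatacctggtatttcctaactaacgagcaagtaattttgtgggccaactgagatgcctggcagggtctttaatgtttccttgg

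Gr22e, chr2L:1786468-1786568: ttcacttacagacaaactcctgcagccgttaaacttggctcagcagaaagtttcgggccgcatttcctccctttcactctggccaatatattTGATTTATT

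Or85f, chr3R:9400050-9400150: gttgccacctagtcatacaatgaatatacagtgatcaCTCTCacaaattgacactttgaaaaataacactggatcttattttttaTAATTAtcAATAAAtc

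Words of these kinds were about as frequent at the member summits as at all IDR summits, with few summits behind each count. Of the 23 IDR summits in member windows, TTTATT was within 50 bp of 8 (34.8%, against 23.9% of all 8143 IDR summits) and GAGAG within 50 bp of 5 (21.7%, beside 1545 of the 8143). CACACA was near 3 (13.0% against 16.6%). TAATTA was found at Or85f alone (4.35% against 5.15%), and TAGTTG at Or59b alone (285 of the 8143). The composite word TGATNNAT was found only beside Gr22e (4.35% against 4.35%), there in the form TGATTTAT, which 1.12% of all IDR summits held. That form shares its letters with TTTATT. TGATTAAT was at no member summit and at 0.344% of all. A match is a description of the letters and not a binding site, and 10 of the 23 summits held none of the words searched, among them those of Or67d and Or30a. How many of all IDR summits held none was not counted.

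Peaks were sparse at the receptor genes, and the families differed. Of the 179 members, 19 (10.6%) had an IDR summit in the gene or within 2000 bp, against 26.5% of all protein-coding genes. The Or genes had 12 of 59 (20.3%), the Gr genes 5 of 60 (8.33%) and the Ir genes 2 of 60 (3.33%). The members are not replicates of one another, several share windows, and no test between families was made. The 8143 strongest peaks of each replicate were counted in the same way, and the largest departure from the IDR counts of the families was that of the Gr genes in replicate 1, 9 against 5. Replicate 1 placed summits at 24 members (background 28.0% of coding genes), replicate 2 at 18 (26.2%) and replicate 3 at 20 (26.2%), a mean of 20.7 ± 3.06 (SD, n = 3). Or genes numbered 13, 11 and 12 in replicates 1, 2 and 3, Gr genes 9, 5 and 5, and Ir genes 2, 2 and 3. The order Or, Gr, Ir held in each replicate. In 17 members (10 Or, 5 Gr and 2 Ir) all 3 replicates had a strong summit, against 21.5% of coding genes.

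**Figure D1:**
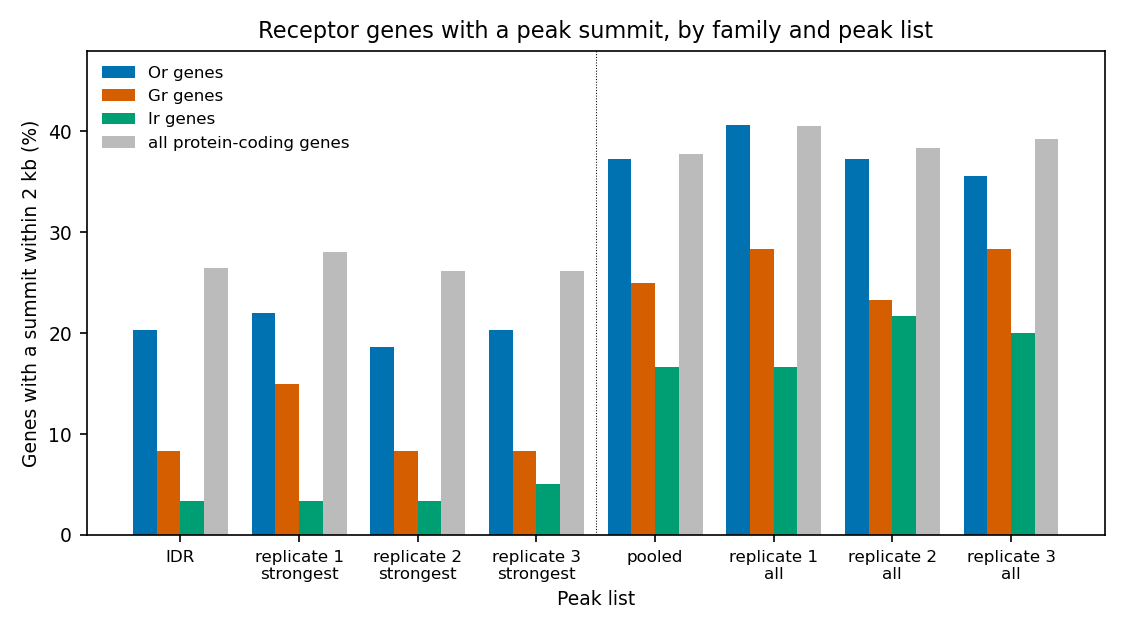
Percent of genes that have a summit inside them or within 2 kb (vertical axis) for the Or, Gr and Ir genes and for all protein-coding genes, in the IDR list and the 8143 strongest peaks of each replicate (left of the dotted line) and in the lists of 30000 peaks (right). The Or bars stand above the Gr and Ir bars in every list, and at or near the grey bars only on the right, where the Or share in the pooled list was 37.3% and that of all coding genes 37.8%.

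The strongest of these peaks lay near the odorant receptor gene Or88a. Those near Or49a and the gustatory receptor gene Gr47b (5.61 ± 0.477 times the list median) came next, about level. In the 3 replicates the peak near Or88a, which encodes a receptor of antennal neurons tuned to odours of other flies, had signal values of 8.15, 7.07 and 6.69 times the median of its list. It averaged 7.30 ± 0.760 (SD, n = 3), and ranked 188 in the IDR list. Its summit (3R, 14108544) lay 901 bp upstream of Or88a but only 223 bp from the start of the divergent gene CG12402. Peaks at Or49a, whose receptor detects odours of parasitoid wasps, stood at 5.37, 5.76 and 5.81 times the median (5.65 ± 0.241), with the summit (2R, 12392852) 631 bp upstream of Or49a and between genes. All 3 replicates ranked the Or88a peak in their first 286 peaks and the Or49a peak in their first 600.

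The Or peaks described next ran from 4.10 times the list median near Or45b to 1.81 times near Or63a. Or45b, a larval odorant receptor gene, had 2 summits in 1 peak (2R, 9557948 to 9558753), 1217 and 1013 bp upstream, at 4.07, 3.98 and 4.26 times the median (4.10 ± 0.145). Or30a, another larval receptor gene, had its summit (2L, 9114486) 1201 bp past its 3' end at 2.71 ± 0.183 times. Or67d encodes the receptor for the male pheromone cis-vaccenyl acetate, and its summit (3L, 10271990) lay 1214 bp upstream and between genes, at 2.76, 2.72 and 2.20 times (2.56 ± 0.311). For Or56a, the geosmin receptor gene, the summit (2R, 19768831) was 630 bp past the 3' end at 2.16 ± 0.0757 times. The larval receptor gene Or63a had the farthest IDR summit of all, 1927 bp past its 3' end (3L, 2965715), at 1.81 ± 0.181 times. These 6 Or genes, Or49a included, had 7 summits that neither lay in another gene nor were closer to the start of another coding gene.

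The other Or genes shared their peaks with neighbours. Or13a, a receptor for the mushroom odour octenol, had a summit (X, 15973485) 940 bp upstream but 326 bp from the start of the divergent gene mmd, which encodes an ADAM family protein (2.27 ± 0.381 times). Or85f had a summit (3R, 9400100) 549 bp past its 3' end and 47 bp from the start of CG34117. That peak stood at 2.06 times in replicate 1 and 1.58 in replicate 3, and the replicate 2 list had no overlapping peak. Or65c had its summit (3L, 6330689) 1620 bp downstream in an exon of CG13300 outside coding sequence, at 2.69 ± 0.282 times. The summit near the larval receptor gene Or45a (2R, 9343942, 1407 bp upstream) lay in introns of CG13739 and CG13954, which span the receptor gene (2.08 ± 0.0375 times). Or59b, an acetate ester receptor gene, was the only Or gene with an IDR summit inside it (2R, 23470243). That summit was 1532 bp into the gene's 1611 bp, in an exon but outside coding sequence. It lies within CG43795 on the opposite strand. It was the weakest peak, at 1.77, 1.84 and 1.40 times (1.67 ± 0.236), and in replicate 3 its rank of 9696 put it outside the strongest 8143.

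IDR peaks lay near 5 gustatory receptor genes and inside none of them. Gr47b had 2 summits in 1 peak (2R, 11364477 to 11365301), 1423 and 1630 bp past its 3' end, with values of 5.63, 5.12 and 6.08 times the list median (5.61 ± 0.477). The start of CG13204 was the closest of any coding gene, 1882 and 1675 bp from these summits. Gr22e and Gr22d, of a cluster of Gr22 genes that includes bitter receptor genes, face each other with their 3' ends, and 3 summits lay in the gap. The summit closest to Gr22d (2L, 1788250, 891 bp past its end) stood at 3.26, 3.23 and 2.79 times (3.09 ± 0.263). The summits 1032 and 1232 bp past the end of Gr22e (2L, 1786318 and 1786518) stood at 2.12 ± 0.405 and 1.74 ± 0.841 times. The farther of them ranked 17116 in replicate 1, where it stood at 0.880 times, while replicates 2 and 3 gave the same values, 2.56 and 1.77 times, for both summits. Gr47a, expressed in bitter neurons, had a summit (2R, 10361632) 553 bp upstream, the closest IDR summit of any member to its start. It lay within an intron of the potassium channel gene SLO2, which spans Gr47a (1.68 ± 0.0612 times). Gr97a had a summit (3R, 26967059) 574 bp upstream, in an exon of CG5521 outside coding sequence and 129 bp from the start of that gene (1.92 ± 0.202 times).

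Ionotropic receptor genes had the fewest peaks. Ir92a, required for the response to ammonia, had the only IDR summit in a receptor intron (3R, 20341029), 2056 bp from its start. It stood at 2.33, 1.58 and 1.80 times the list median (1.90 ± 0.387). The pooled list held a further, weaker summit in an intron of Ir92a (3R, 20341861, rank 28996). Ir85a lies within Pif1A and Pif1B, which share their span on the opposite strand, and had summits in their introns (3R, 8798497 and 8798696) 1531 and 1730 bp past its own 3' end. Those summits were 1447 and 1248 bp from a start of Pif1A, and the overlapping replicate peaks stood at 3.16, 3.23 and 2.20 times (2.87 ± 0.574). The co-receptor genes Ir8a, Ir25a and Ir93a, which other Irs need to reach the membrane and work, had no summit in any of the 5 lists. The co-receptor gene Ir76b had 1 summit, in the full list of replicate 3 only. Ir41a, required for responses to polyamines, is the longest member (104437 bp) and had no summit in any list. Its nearest IDR summit was 660618 bp away, the greatest distance of any member. Ir40a, of the dry-air receptor, is 24851 bp long and was likewise without a summit, the nearest being 114012 bp away.

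**Figure D2:**
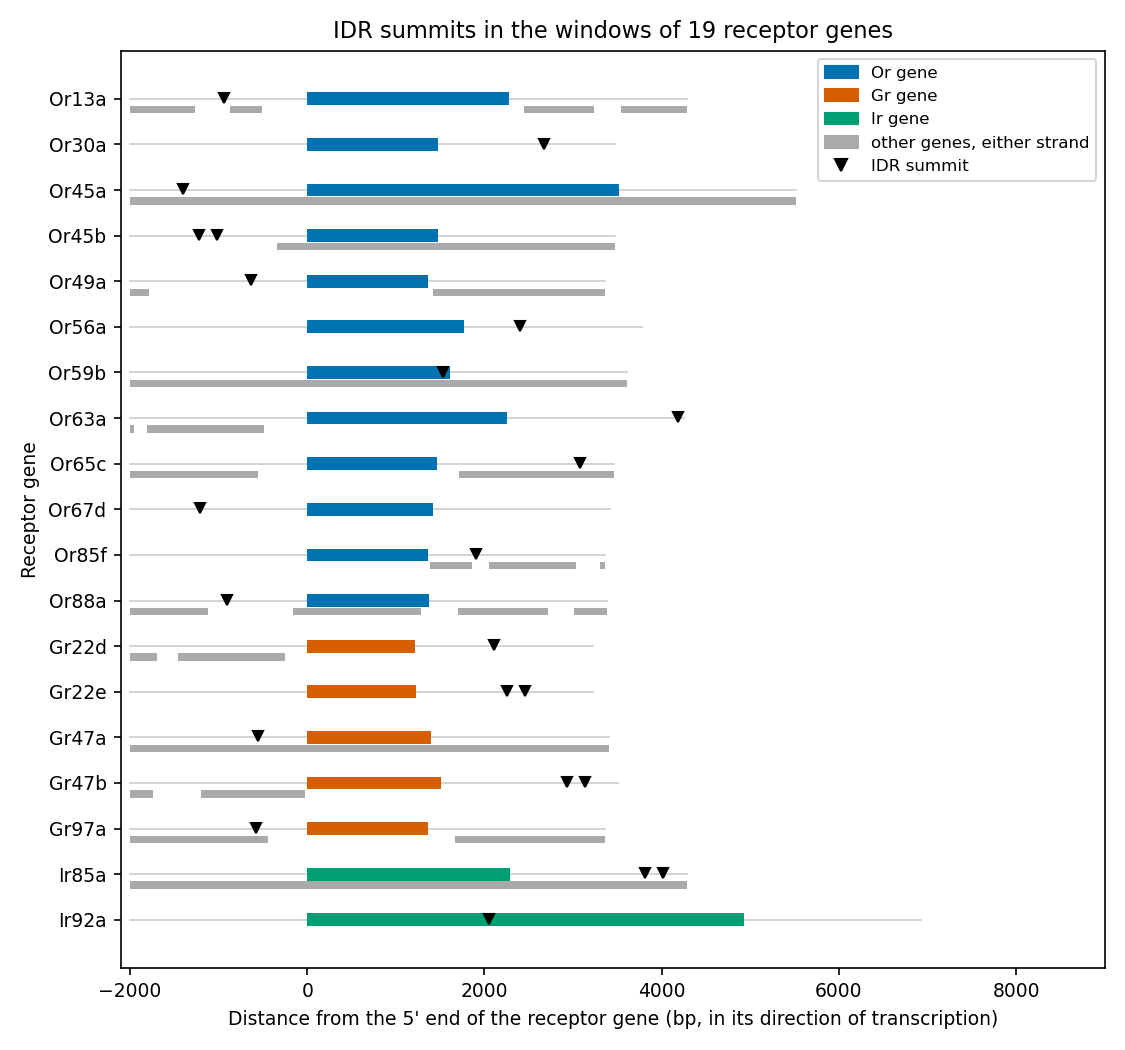
Positions of the 23 IDR summits (triangles) in the windows of the 19 members that had one, as distance in bp from the 5' end of each receptor gene in its direction of transcription (horizontal axis), with the receptor gene as a coloured bar and other genes on either strand in grey below it. Summits sit beside the coloured bars except at Or59b and Ir92a, and none lies within 500 bp of a receptor start.

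IDR summits were beside the receptor genes and away from their starts. Of the 23 gene and summit pairs, 9 were upstream, 12 downstream and 2 inside the gene, whereas 60.6% of the 9146 such pairs of all protein-coding genes were inside, 24.2% upstream and 15.2% downstream. Only 2 of 179 members (1.12%) had an IDR summit inside the gene, against 13.3% of coding genes. The values of all coding genes were not matched for gene length. Of the Or bodies 3.92 of 98.6 kb lay over 300 bp from any coding exon, and of the Gr bodies 3.33 of 105 kb. Such sequence held 7.45 IDR summits per Mb in receptor bodies (1 summit), and 90.4 in the bodies of all coding genes. Without Ir40a and Ir41a the receptor value was 72.9. Within 1000 bp of a transcript start there were 5 members (2.79%), namely Or88a, Or49a, Or13a, Gr47a and Gr97a, against 16.3%. Within 500 bp there was none, against 12.8%. No IDR summit of a member lay in coding sequence. In the pooled list, 5 of the 89 gene and summit pairs were within 500 bp of a receptor start and 18 within 1000 bp. Of the pooled summits 1 was in coding sequence, that of Or22c. Such pooled values were not computed for all coding genes. Another gene's body held 7 of the 23 summits, and for 8 the nearest coding start was that of a gene other than a receptor. With both kinds set aside, 11 summits at 9 genes remained (6 Or, 2 Gr and 1 Ir). Just inside the limit of 2000 bp stood Or65c at 1620 bp and Or63a at 1927 bp from their nearest IDR summit. Just outside stood Or59c at 2057 bp, through the summit at Or59b, and the taste receptor gene Gr33a at 2076 bp.

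The peaks that were present were ordinary in strength. Their ranks ran from 188 to 7238 with a median of 3806 of 8143, and 13 of 23 (56.5%) were in the stronger 50% of the list. In the replicates their signal had a median of 2.56 times the list median, beside 2.42 over all IDR summits. All 3 replicates had an overlapping peak among their strongest for 20 of the 23 (87.0%, against 72.8% of all IDR summits), and the others, at Or59b, Or85f and the farther Gr22e summit, had it in 2. Of the 83 distinct pooled summits in member windows 27.7% were kept in the IDR list, beside 27.1% of all pooled summits. This share was 37.1% near Or genes, 25.0% near Gr genes and 15.0% near Ir genes. Summits in 1 peak, as at Or45b and Gr47b, and the 2 overlapping peaks at Ir85a took their replicate values from the same replicate peaks, so the 23 summits are not independent.

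**Figure D3:**
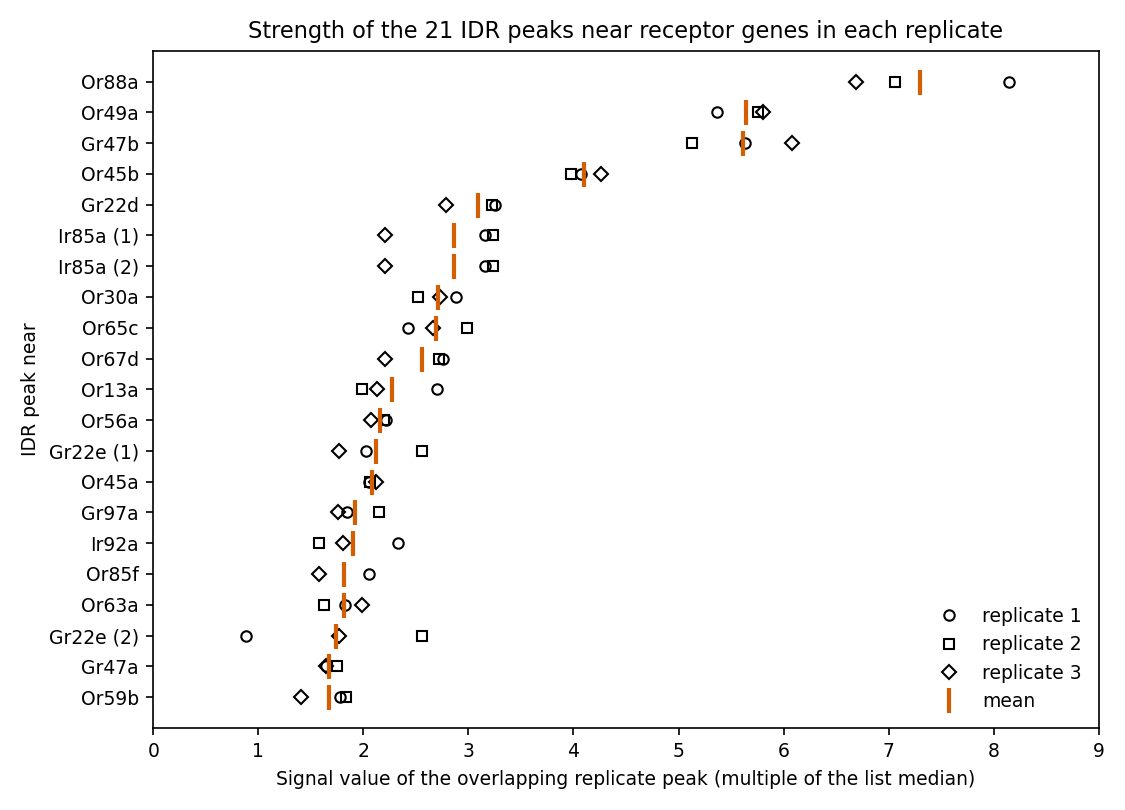
Signal value of the replicate peak that overlaps each of the 21 IDR peaks near members, as a multiple of the median of that replicate's list (horizontal axis, open symbols for the 3 replicates, vertical bar for their mean), in order of the mean. Or88a leads at 7.30, the replicates of Or88a, Or49a, Gr47b and Or45b stand above those of all other peaks, and Or85f lacks a replicate 2 value.

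Among other coding genes the share with an IDR summit was higher in each longer class, whereas over the 3 receptor families together it was not. Receptor genes are short, with a median of 1691 bp against 2166 bp for all coding genes, and no member is under 1000 bp. The Ir genes, with the fewest summits, had the longest median (1908 bp), beside 1462 bp for Or and 1397 bp for Gr genes. Among members of 1000 to 2000 bp 14 of 127 (11.0%) had an IDR summit, against 15.9% of the 3715 other coding genes of that length. From 2000 to 5000 bp the counts were 5 of 47 (10.6%) against 20.1%. The 5 members of 5000 bp or more, Gr28b, Gr39a, Ir93a, Ir40a and Ir41a, had none, against 54.2% of other genes in that class. Or genes of 1000 to 2000 bp had summits in 9 of 49 cases (18.4%), above the share of other genes of that length, while Gr genes had 5 of 47 (10.6%) and Ir genes 0 of 31. From 2000 to 5000 bp the IDR counts were 3 of 10 Or (30.0%), 0 of 11 Gr and 2 of 26 Ir genes (7.69%). Between these classes the share was thus higher in the longer one for Or and Ir genes and lower for Gr genes. With all 30000 pooled peaks the share over all members was 26.0% against 26.1% of other genes from 1000 to 2000 bp, and 29.8% against 30.3% from 2000 to 5000 bp. These are averages of families that lay on either side of the other genes. From 1000 to 2000 bp the pooled shares were 32.7% of Or, 25.5% of Gr and 16.1% of Ir genes. From 2000 to 5000 bp a pooled summit was found at 6 of 10 Or, 3 of 11 Gr and 5 of 26 Ir genes. The 5 longest members again had none (65.5% of other genes). Among the coding genes outside the receptor families, 1887 of those with an IDR summit were 5000 bp or longer.

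**Figure D4:**
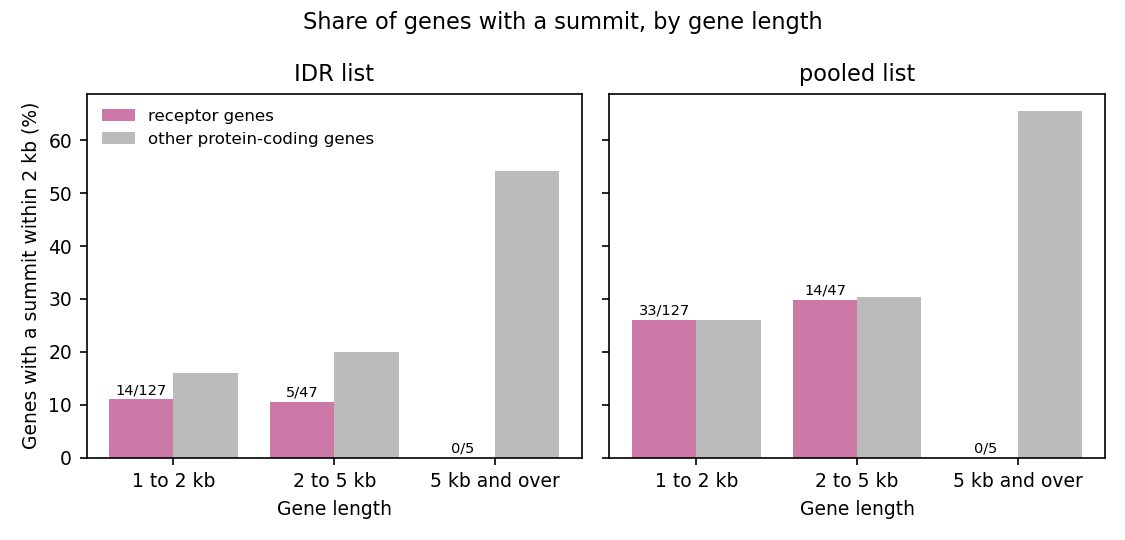
Percent of genes that have a summit inside them or within 2 kb (vertical axis) by gene length for receptor genes, with counts above the bars, and other protein-coding genes, in the IDR list (left) and the pooled list (right). The receptor bars average the families. They are lower in every class on the left, and level with the others below 5 kb on the right.

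Coding sequence filled a median of 44.2% of the member windows, 35.8% for Or, 47.7% for Gr and 55.7% for Ir genes, beside 38.1% for all coding genes and 43.9% for other genes of 1000 to 2000 bp. Sequence more than 300 bp from any coding exon amounted to a median of 2038 bp per Or window and 1700 bp per Gr or Ir window. The median was 2053 bp for all coding genes and 1287 bp for other genes of 1000 to 2000 bp. In the flanks of 2000 bp, counted once where windows overlap, such sequence held 85.5 IDR summits per Mb beside Or genes, 86.3 beside Gr genes and 20.2 beside Ir genes. Beside all coding genes it held 120 per Mb. Those flanks leave out the bodies of all coding genes, whereas the receptor flanks take in the bodies of neighbouring genes. On this measure the Or and Gr flanks were level and the Ir flanks low, with 11, 7 and 2 summits behind the values. With pooled peaks the densities were 225, 271 and 141 per Mb, beside 334 for all coding genes, with the same difference between the flanks. The part of coding content in the family counts was not tested.

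Receptor genes that stand in tandem had fewer peaks than those that stand alone. Of the 79 members within 5000 bp of another member, which form 28 arrays of up to 6 genes, 4 (5.06%) had an IDR summit and 11 (13.9%) a pooled one. Of the 100 single members 15 (15.0%) and 36 (36.0%) had one, beside 26.5% and 37.8% of all coding genes. The 4 in tandem were Gr22e and Gr22d, Or59b and Or65c. Or genes made up a smaller part of the tandem than of the single members, and tandem windows often take in neighbouring receptor genes. The part of either in the difference was not tested. The sugar receptor cluster Gr64a to Gr64f, the Ir7c to Ir7g cluster, the Ir52a to Ir52d cluster and the Ir94 clusters had no summit in the IDR or pooled list. Another gene spanned 33 members completely, noncoding genes and other receptors counted. An IDR summit was found at 5 of these (Or45a, Or45b, Or59b, Gr47a and Ir85a), beside 14 of the 146 others. The Or45b summits lay outside the noncoding gene that spans it. The share among all coding genes spanned by another gene was not computed. By arm the members with an IDR summit numbered 3 of 31 on 2L, 7 of 46 on 2R, 3 of 35 on 3L, 5 of 42 on 3R and 1 of 25 on the X. These shares, 4.00% to 15.2%, were below those of all coding genes on each of these arms, 25.1% to 29.6%.

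Weaker peaks added members of each family. In the pooled list 47 members (26.3%) had a summit, against 37.8% of coding genes, with 22 Or, 15 Gr and 10 Ir genes, and 28 of them had no IDR summit. The full replicate lists gave 51, 49 and 50 members in replicates 1, 2 and 3, against 40.5%, 38.4% and 39.3% of coding genes, a mean of 50 ± 1.00 (SD, n = 3). In these lists 43 members had a summit in all 3 replicates, 7 in 2 and 7 in 1, and 122 members (34 Or, 42 Gr and 46 Ir) had none in any list. For these counts no share of all coding genes was computed, so they cannot be set against other genes. The most pooled summits at genes without an IDR summit were 4 each at Gr98a and at Or67c, followed by 3 each at Ir47a, Gr58a, Ir48c and Gr89a. Gr98a had 3 of its 4 within 720 bp upstream, ranked between 21589 and 28602 of 30000. Ir47a and Ir48c lie within SLO2 and within the FGF ligand gene ths, where all of their summits fell. Of the Ir47a summits 1 (2R, 10380059) was also in an exon of Ir47a, 50 bp from its start. Gr58a, Gr58b and Gr58c share 2 pooled summits, at 1.42 and 1.20 times the list median. Those 3 genes and Gr89a passed into the strongest 8143 in replicate 1 only, and account for the 4 Gr genes by which replicate 1 exceeded replicates 2 and 3.

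Other chemosensory and related genes were set beside the receptors, from lists chosen with earlier results of these data known. Orco, the odorant co-receptor gene, had 1 IDR summit (3R, 5412613, rank 4506), 207 bp upstream of its start and between genes. No IDR summit was as close to the start of a numbered receptor gene. Of 12 accessory genes, 3 had an IDR summit, Orco, Snmp2 and Obp28a, beside 26.5% of all coding genes. That of Obp28a was 7 bp from the start of Ziz. Both at Snmp2 lay over CG32373, with the start of Snmp2 as the nearest coding start. They were 435 bp from it, inside Snmp2, and 935 bp upstream. Odorant-binding protein genes, short genes with a median of 788 bp, had 3 of 51 (5.88%, beside 15.5% of coding genes under 1000 bp), namely Obp28a, Obp56d and Obp59a, the last in robo1. Transcription factor genes of olfactory neurons, with a median length of 19679 bp, had 5 of 12 (41.7%), beside 54.2% of the coding genes of 5000 bp or more outside the receptor families. There were 7 summits at pdm3, 3 each at acj6 and sim, 2 at Xbp1 and 1 at svp. acj6 and pdm3 encode POU factors that help choose odorant receptors, and all summits in acj6 and sim were inside the gene. The nearest coding start to the acj6 summits was that of Pp1-13C, and 1 of the Xbp1 summits lay over Magi, 85 bp from its start. Synaptic glutamate receptor genes, the relatives of the Irs, had 5 of 13 (38.5%), GluRIA, GluRIB, GluRIIB, Grik and Nmdar2. Their median length was 6045 bp, though several are under 5000 bp. The share was 26.5% of all coding genes, and 54.2% of those of 5000 bp or more outside the receptor families. Summits at GluRIB and GluRIIB lay past the 3' ends of these genes. The GluRIA summit was 7 bp from its start. The Grik summit was nearest to the start of TotX, and of the Nmdar2 summits 1 lay over the neighbouring gene sta and the other over both Nmdar2 and inc.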

How the data were processed

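Peak lists on dm6 for 3 replicates, for pooled reads and for IDR were deposited by the authors, per the labels and the text records beside the lists. No source used here names the aligner, the peak caller or the threshold for IDR. The deposited signal value is a score without a unit, and only its rank or its multiple of the list's median was used. Each list stops at 30000 peaks, and depth is unknown.

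Genes came from Ensembl release 115 (FlyBase 6.54), which shares dm6 coordinates, without transposable elements. Summits (column start plus offset) were counted in genes extended by 2000 bp. Replicate values were those of the strongest replicate peak overlapping an IDR peak by at least 1 bp. Coding sequence, nearest coding starts and spanning genes came from all transcripts. Window counts were checked on simulated peaks. Python 3.11.15, numpy 2.4.6 and pandas 2.3.3 were used.

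Members, lists, words and alternatives were chosen with earlier results of these data known. With 1 group no test between conditions exists, and none was made over genes. The named genes were all members with an IDR summit, those with the most pooled summits, the Ir co-receptors, those at the 2000 bp limit, neighbours at summits and list genes with a summit. Members of 5000 bp or more, and the receptor clusters, were named after their values were seen, as was the window of 500 bp around starts.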

Additional observations from a re-analysis of the deposited data

How the results depend on the processing

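The count of 19 members with an IDR summit and the family counts of 12 Or, 5 Gr and 2 Ir genes depended mostly on the window. For all members, Or, Gr and Ir genes in this order, the counts were 2, 1, 0 and 1 both in the gene body alone and with 500 bp on each side, and 76, 22, 29 and 25 with 10000 bp, where the Gr count exceeded the Or count. Over all coding genes these windows gave 13.3%, 19.0% and 52.6%, beside 1.12%, 1.12% and 42.5% of members. Starts within 1000 bp gave 5, 3, 2 and 0, and within 500 bp, a window chosen after the data were seen, 0 in each, beside 16.3% and 12.8% of coding genes. The stronger 50% of IDR summits gave 11, 7, 3 and 1 (6.15% of members, 17.9% of coding genes). Leaving out summits inside other genes, or those nearer to another gene's start, each gave 13 members, with 9 Or, 3 Gr and 1 Ir. Any base of the peak in place of the summit (21 members) and peaks among the strongest of all 3 replicates (17) stayed within 1.5 times of the main counts in each family. The count of 47 members with a pooled summit became 4 in the gene body and 112 with 10000 bp, and 50 and 38 under its other alternatives. The replicate mean of 20.7 became 50 with all peaks, 1.67 in the gene body and 74.3 with 10000 bp. Without 1 replicate it ran from 19 to 22. No share of all coding genes was computed for the alternatives of the pooled count or for the changed windows of the replicate mean. The same holds for the 13 members above, so these counts cannot be set against other genes. The IDR list could not be remade without a replicate. No paired analysis was possible because the series has 1 group. Peak lists carry no read counts, so a member without a summit is one below the lists' limit and not one shown to lack binding.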
